A study of Mus musculus with 17 samples.

Results

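The members described here are 10 genes of inflammation, measured in the colon of male mice given the PXR agonist pregnenolone 16α-carbonitrile (PCN). They are the cytokines Il1a, Il1b, Il33, Il6, Il11, Osm and Tnf, the lipopolysaccharide receptor Tlr4, the prostaglandin synthase Ptgs2 and the leukotriene receptor Ltb4r1. They were chosen by name, with earlier results of the same arrays known, among them that several were higher under PCN in WT. Each gene was represented by the probe with the highest mean value in the table of log2 values deposited by the authors. Of the 10 members, 9 were among the 25029 gene or transcript names that passed the filter on dim probes. Il1a was not well above background on any of the 17 arrays, where its log2 signal lay between 4.59 and 5.36, and it was not tested.

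The arrays formed 4 groups. WT CONT (n = 4) were C57BL/6J mice given corn oil alone, and WT PCN (n = 4) were the same strain given PCN dissolved in corn oil. Pxr-/- CONT (n = 5) and Pxr-/- PCN (n = 4) were mice lacking the PXR gene, backcrossed on the C57Bl/6J background, with the same treatments. PCN was injected i.p. at 100 mg/kg once a day for 4 days, and fed mice were killed 6 h after the last injection. WT mice were bought at 6 weeks of age and had 2 weeks to acclimatize, whereas Pxr-/- mice were bred in house, so that genotype and colony of origin cannot be told apart. RNA came from whole colon, a mixture of epithelium, muscle, stroma and immune cells.

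Interleukin 1 beta and interleukin 33 belong to the same cytokine family. The former is made mainly by activated myeloid cells, and the latter is an alarmin kept in the nucleus of barrier and stromal cells. Interleukins 6 and 11 and oncostatin M all signal through the shared receptor chain gp130, and TNF and TLR4 activate NF-κB. Ptgs2 encodes cyclooxygenase 2, which starts prostaglandin synthesis, and Ltb4r1 encodes the high-affinity receptor for leukotriene B4, an attractant of neutrophils. PXR is a nuclear receptor that induces drug-metabolizing enzymes, and in the gut it is known to restrain NF-κB signalling.

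For the 5 members that were higher under PCN in both genotypes, the 250 bases before the start of transcription are of interest as the sequence next to the start site. RefSeq (GRCm38.p6) held promoters for 8 of the 10 members, 10 promoters in all, and none was found under the names Osm and Tlr4. The promoters of the other 4 are printed 5′ to 3′ on the strand of the gene, where capitals mark matches to the motifs searched. Il33 has a pair of start sites.
Il1b (chr2:129371140-129371389, minus strand): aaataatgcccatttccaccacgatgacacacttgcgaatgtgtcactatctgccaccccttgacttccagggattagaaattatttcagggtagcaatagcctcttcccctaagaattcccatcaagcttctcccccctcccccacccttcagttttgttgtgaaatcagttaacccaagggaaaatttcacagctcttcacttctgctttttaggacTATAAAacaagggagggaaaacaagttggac
Il33, upstream start (chr19:29924863-29925112, plus strand): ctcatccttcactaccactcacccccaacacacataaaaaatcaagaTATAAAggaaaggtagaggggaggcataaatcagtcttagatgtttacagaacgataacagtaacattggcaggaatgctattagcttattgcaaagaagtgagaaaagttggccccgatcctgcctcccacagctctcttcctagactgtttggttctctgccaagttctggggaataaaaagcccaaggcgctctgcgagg
Il33, downstream start (chr19:29945540-29945789, plus strand): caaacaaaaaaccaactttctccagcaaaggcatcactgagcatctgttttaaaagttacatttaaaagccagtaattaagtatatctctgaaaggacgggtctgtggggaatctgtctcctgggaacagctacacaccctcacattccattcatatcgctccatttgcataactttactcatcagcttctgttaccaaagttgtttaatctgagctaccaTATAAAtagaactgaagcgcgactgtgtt
Il6 (chr5:30012864-30013113, plus strand): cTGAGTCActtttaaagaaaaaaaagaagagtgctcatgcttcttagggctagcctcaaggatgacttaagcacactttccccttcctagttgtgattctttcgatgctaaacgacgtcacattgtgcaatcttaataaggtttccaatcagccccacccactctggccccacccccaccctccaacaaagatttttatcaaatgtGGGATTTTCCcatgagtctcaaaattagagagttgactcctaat
Ltb4r1 (chr14:55765712-55765961, plus strand): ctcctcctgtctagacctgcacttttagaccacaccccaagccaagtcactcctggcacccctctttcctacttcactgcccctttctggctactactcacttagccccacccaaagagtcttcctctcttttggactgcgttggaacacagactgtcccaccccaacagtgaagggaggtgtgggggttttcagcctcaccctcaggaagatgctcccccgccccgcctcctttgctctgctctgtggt
The motifs searched were letter patterns of the κB site and the PXR site DR-4, AP-1 as TGANTCA, the STAT site as TTCNNNGAA and the TATA box as TATAAA. Both strands were searched for each motif. The TATA matches in the printed windows lay on the strand of the gene, and the TATA share given below counts matches on either strand. The Il6 window held an AP-1 match at base -249 and a κB match at base -44. A TATA match began at base -31 for Il1b, at base -203 for the upstream start of Il33 and at base -29 for its downstream start. The window of Ltb4r1 held none of these motifs. Among 32851 promoters of this length, 7.25% held a κB match, 6.75% AP-1, 7.02% STAT, 12.4% TATA and 0.067% DR-4. A match describes the letters of this window and not binding, which was not measured.

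On each array, 61% to 69.7% of probes were well above background. Some arrays with different labels were nearly alike. The SD of log2 differences over 38646 probes was 0.198 between WT PCN 3 and Pxr-/- CONT 2 and 0.172 between WT PCN 4 and Pxr-/- PCN 2, whereas it was 0.297 to 0.616 in the other 134 pairs of arrays. The members differed by at most 0.39 within those pairs (Ptgs2) and the others by at most 0.29. PCN differences of the members are therefore given with all 17 arrays as labelled and with the 13 arrays left without these 4. Nr1i2, which encodes PXR, was read by 1 probe at 11.97 to 12.31 in WT CONT and 10.39 to 11.61 in Pxr-/- CONT, but at 10.95 to 11.93 in Pxr-/- PCN and 11.10 to 12.44 in WT PCN. Where that probe lies relative to the deletion is not known here, so it does not check the labels. Colonocyte markers were high on all arrays, with a mean log2 signal of 14.54 to 15.12. Pancreas markers reached 17.64 on WT CONT 4, 15.71 on WT PCN 3, 15.67 on Pxr-/- CONT 2 and 11.57 on WT PCN 1, against at most 6.93 on the rest. Liver markers reached 12.46 on WT CONT 5 and 9.92 to 10.12 on WT PCN 1 and 2, against at most 8.38 on the rest. WT PCN 1 and 2 are also the only WT PCN arrays among the 13. The part of pancreas or liver RNA in any result was not tested. The mean of distal colon markers was 6.35 on Pxr-/- PCN 4 and 7.70 to 10.44 on the other arrays. Without Pxr-/- PCN 4, the PCN differences in Pxr-/- described next were 0.95 for Il1b, 1.58 for Il33, 1.55 for Il6, 0.99 for Osm, 0.51 for Ltb4r1 and -0.68 for Ptgs2, against 0.82, 1.63, 1.31, 0.85, 0.44 and -0.76 with all 17 arrays.

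Il1b, Il33, Il6, Osm and Ltb4r1 were higher under PCN in both genotypes, while Tnf, Ptgs2, Il11 and Tlr4 showed no common direction or small differences. With 17 arrays, limma called 0 of the 9 members in any of the 4 comparisons, where a call needs a fold above 1.5 and a false discovery rate no higher than 0.05. At an unadjusted p under 0.05 there were 5 members in WT under PCN, 6 in Pxr-/- under PCN, 2 for genotype in CONT and 1 for PCN by genotype. The share of all 38703 probes at that threshold was 4.66%, 7.35%, 12.7% and 5.38% in the same order. Over all 38703 probes, 0% were called in WT under PCN, 0.00517% in Pxr-/- under PCN, 0% for genotype in CONT and 0% for PCN by genotype. With 13 arrays the shares were 0.0491%, 0.0517%, 0% and 0.00258%, and limma called 3 members for PCN in WT (Il1b, Il33 and Ltb4r1) and 0 in the other comparisons, where 6, 3 and 3 members had an unadjusted p under 0.05, against 2781, 3899 and 1143 of the 38703 probes. Il1b was called when any of the 13 arrays was also left out. Il33 kept its call without WT CONT 4, Pxr-/- CONT 5, Pxr-/- PCN 1 or Pxr-/- PCN 4 and Ltb4r1 without WT CONT 5, Pxr-/- CONT 4 or Pxr-/- PCN 4, and both lost it without the others, so that 1 to 4 members were called. Since the comparison of PCN in WT served to choose members, its values, counts and calls are a description without a test. This holds also where they are set against the share of all probes or where arrays were left out. The direction in Pxr-/- was known beforehand for 4 of the 5 members, so the counts in Pxr-/- are not independent evidence.

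With 17 arrays, no member had all WT PCN arrays above all WT CONT arrays, where 1.36% of all probes did. With 13 arrays it was 5 of 9, against 6.39% of probes, from only 2 WT PCN arrays. In Pxr-/- mice, Il1b, Il33, Il6, Osm and Ltb4r1 were higher on all PCN arrays than on all CONT arrays with 17 arrays, against 1.38% of all probes. With 13 arrays Tnf joined them, against 3.35% of probes. For 4 of them (all but Osm) this direction in Pxr-/- mice was already known when the members were chosen, so these counts are not independent evidence.

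**Figure D1:**
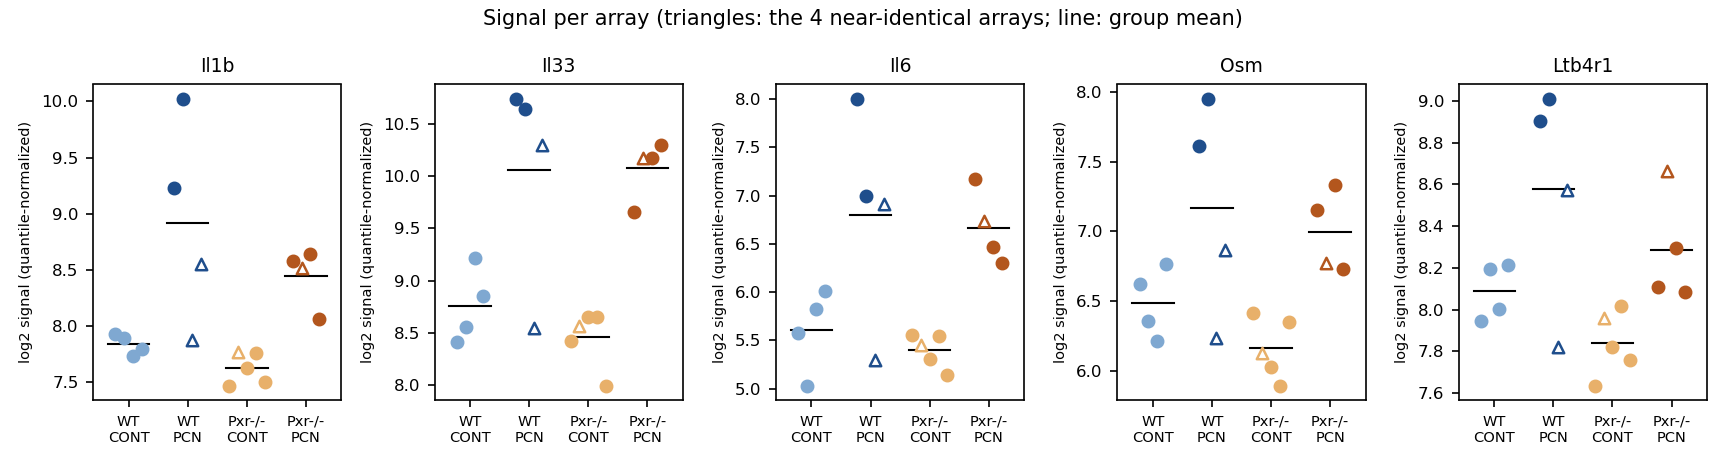
Log2 signal (quantile-normalized, vertical axis) of Il1b, Il33, Il6, Osm and Ltb4r1 on each array by group (horizontal axis), with the group mean as a line and the 4 near-identical arrays as open triangles. All 4 Pxr-/- PCN arrays lie above all 5 Pxr-/- CONT arrays for each gene, and WT PCN 3 lies among the CONT arrays.

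The probe for Il1b lies at chr2:129190347-129190406 (mm9, as are all probe positions here). Its log2 signal was 7.93, 7.89, 7.74 and 7.80 in WT CONT (replicates 2 to 5) and 9.23, 10.02, 7.88 and 8.55 in WT PCN (replicates 1 to 4). It was 7.47, 7.77, 7.63, 7.76 and 7.50 in Pxr-/- CONT (replicates 1 to 5) and 8.58, 8.52, 8.64 and 8.06 in Pxr-/- PCN (replicates 1 to 4). Control levels thus lay within a narrow band, and WT PCN 3 was the only PCN array inside it. In WT the PCN difference on the log2 scale was 1.07 ± 0.32 (SE) with 17 arrays and 1.79 ± 0.16 with 13, a 3.45-fold higher signal. The SE uses the spread shared by all groups, and the 2 WT PCN arrays left had an SD of 0.56. Within the wash baths, the WT difference with 13 arrays was 2.11 and 1.46, each from only 1 PCN array. In Pxr-/- the PCN difference was 0.82 ± 0.30 with 17 arrays (limma adjusted p = 0.58). With 13 it was 0.89 ± 0.14 (adjusted p = 0.0911), a 1.85-fold higher signal. Within the wash baths, the Pxr-/- difference with 13 arrays was 0.94, from only 1 PCN array, and 0.84. The 2 other Il1b probes moved the same way with smaller differences, of 0.80 and 0.44 in WT and 0.62 and 0.31 in Pxr-/- with 17 arrays, and 1.40 and 1.01 in WT and 0.69 and 0.43 in Pxr-/- with 13.

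Il33 had the largest PCN differences among the members in both genotypes with 13 arrays. Its probe at chr19:30035101-30035160 gave 8.41, 8.56, 9.22 and 8.86 in WT CONT and 10.74, 10.64, 8.55 and 10.30 in WT PCN. It gave 8.42, 8.56, 8.65, 8.65 and 7.99 in Pxr-/- CONT and 9.65, 10.17, 10.17 and 10.30 in Pxr-/- PCN. Apart from WT PCN 3, every PCN array lay above every CONT array of either genotype. The WT difference was 1.34 ± 0.38 with 17 arrays and 1.93 ± 0.26 with 13. Within the baths with 13 arrays, the Pxr-/- difference was 1.52, from only 1 PCN array, and 1.77. Over both baths it was 1.63 ± 0.35 with 17 arrays (3.1-fold, limma adjusted p = 0.248) and 1.61 ± 0.23 with 13 (3.05-fold, adjusted p = 0.0516). These p-values rested on the WT PCN arrays through the spread shared by the groups. Without WT PCN 3 alone, limma called Il33 (adjusted p = 0.00322) and Il6 (adjusted p = 0.0472) in Pxr-/- mice, and without WT PCN 3 and 4 alone it called Il33 (0.00479) and Il1b (0.042). With the 2 Pxr-/- groups alone, Il33 had an adjusted p of 0.0126. Over all alternatives the adjusted p ranged from 0.00322 to 0.749 for Il33, from 0.0472 to 0.749 for Il6 and from 0.042 to 0.922 for Il1b. A second Il33 probe, whose parts span 2268 bases, gave 0.70 in WT and 0.48 in Pxr-/- with 17 arrays, and 1.08 and 0.46 with 13. In whole tissue, a change in the number of cells of a type and a change in RNA per cell cannot be told apart.

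Il6, the acute phase cytokine, was near the background in the control colons. Its probe (chr5:30346367-30346426) was above background on 11 of 17 arrays, 3 of 4 in WT CONT, 3 of 4 in WT PCN, 1 of 5 in Pxr-/- CONT and 4 of 4 in Pxr-/- PCN. The size of its differences thus rests on control signals of which many were not above background. The signal was 5.58, 5.03, 5.82 and 6.01 in WT CONT and 8.0, 6.99, 5.30 and 6.91 in WT PCN. It was 5.56, 5.45, 5.31, 5.54 and 5.14 in Pxr-/- CONT and 7.17, 6.74, 6.47 and 6.30 in Pxr-/- PCN. WT PCN 3 was again the only PCN array among the controls, and it was not above background. The difference was 1.31 ± 0.38 in WT and 1.31 ± 0.35 in Pxr-/- with 17 arrays (limma adjusted p = 0.4 in Pxr-/-). With 13 arrays it was 1.88 ± 0.29 and 1.19 ± 0.26 (adjusted p = 0.298 in Pxr-/-). With the scanner's processed signal scaled to the 75th percentile instead, the differences were 2.35 in WT and 2.67 in Pxr-/-, and with normexp background correction 0.86 in Pxr-/-. A second Il6 probe was not well above background on any CONT array. It was above background on 3 of 4 arrays in each PCN group, and with 13 arrays on 2 of 2 in WT and 2 of 3 in Pxr-/-. It thus passed the filter on dim probes only through PCN arrays, so its values are a description and no support for a rise. Its signal was at least 1.66-fold higher in WT PCN and at least 1.42-fold higher in Pxr-/- PCN with 17 arrays, and at least 2.32-fold and at least 1.41-fold higher with 13. The bound sets the PCN mean against, for each CONT array, the higher of the probe's own signal and the lowest signal that was well above background. That PCN mean includes the PCN arrays that were not above background.

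Osm, a cytokine of myeloid cells that acts on stromal cells, followed the same order. Its probe (chr11:4140873-4140932) gave 6.62, 6.35, 6.22 and 6.77 in WT CONT and 7.61, 7.95, 6.23 and 6.87 in WT PCN. It gave 6.41, 6.13, 6.03, 5.89 and 6.35 in Pxr-/- CONT and 7.15, 6.77, 7.33 and 6.73 in Pxr-/- PCN. In WT the groups overlapped through WT PCN 3, and WT PCN 4 was just above the highest control. In Pxr-/- they were separate. The WT difference was 0.72 ± 0.29 with 17 arrays and 1.29 ± 0.22 with 13. The Pxr-/- difference was 0.85 ± 0.27 (limma adjusted p = 0.497) and 0.90 ± 0.20 (adjusted p = 0.299). With 13 arrays it was 1.37 in 1 wash bath, from only 1 PCN array, and 0.56 in the other. A second Osm probe was above background on 0 arrays.

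Ltb4r1 showed the smallest of the 5 differences. Its probe (chr14:56387175-56387234) gave 7.94, 8.19, 8.0 and 8.21 in WT CONT and 8.90, 9.01, 7.82 and 8.57 in WT PCN. It gave 7.64, 7.96, 7.82, 8.02 and 7.76 in Pxr-/- CONT and 8.11, 8.66, 8.30 and 8.08 in Pxr-/- PCN. Pxr-/- PCN 4 exceeded the highest Pxr-/- CONT array by little, and Pxr-/- PCN 1 and 4 lay below the highest WT CONT array. The difference in WT was 0.48 ± 0.21 with 17 arrays and 0.87 ± 0.11 with 13. In Pxr-/- it was 0.44 ± 0.20 (limma adjusted p = 0.653) and 0.37 ± 0.10 (adjusted p = 0.432), a 1.36-fold and a 1.3-fold higher signal.

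Among all 17 arrays, WT PCN 2 had the highest signal for 3 of these 5 genes and WT PCN 1 for 2. WT PCN 1, 2 and 4 and Pxr-/- PCN 1, 2 and 3 were among the 8 highest arrays for 5 of the 5, Pxr-/- PCN 4 for 4, and WT PCN 3 for 0. The order of the group means was WT PCN, Pxr-/- PCN, WT CONT and Pxr-/- CONT for Il1b, Il6, Osm and Ltb4r1. For Il33 the means of both PCN groups were 0.02 apart, with Pxr-/- PCN first. The step from WT PCN to Pxr-/- PCN was 0.47 for Il1b, 0.13 for Il6, 0.17 for Osm and 0.29 for Ltb4r1. With 17 arrays it was smaller in each case than the SD among WT PCN arrays, which was 0.92, 1.12, 0.77 and 0.54 in the same order. With 13 arrays the means of WT PCN and Pxr-/- PCN were 9.62 and 8.43 for Il1b, and 7.50 and 6.64 for Il6. They were 7.78 and 7.07 for Osm, 8.96 and 8.16 for Ltb4r1, and 10.69 and 10.04 for Il33. Each of these steps was larger than the SD among the 2 WT PCN arrays left, which was 0.56, 0.71, 0.24, 0.08 and 0.07.

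Tnf differed most of the members between the control groups and spread widely within WT. Its probe (chr17:35336795-35336854) gave 7.45, 7.28, 8.71 and 7.62 in WT CONT and 7.36, 9.02, 6.28 and 6.72 in WT PCN. It gave 6.96, 6.56, 6.75, 6.89 and 6.73 in Pxr-/- CONT and 7.05, 6.82, 7.18 and 7.02 in Pxr-/- PCN. The highest signals were those of WT PCN 2 and WT CONT 4, and the lowest that of WT PCN 3. The WT difference was -0.37 ± 0.45 with 17 arrays and 0.42 ± 0.44 with 13, so that its direction turned with the 4 arrays. In Pxr-/- it was 0.26 ± 0.42 (limma adjusted p = 0.944) and 0.25 ± 0.39 (adjusted p = 0.954).

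Tlr4 lay between 8.59 and 9.0 on all arrays, and PCN differences were 0.06 ± 0.09 in WT and 0.04 ± 0.08 in Pxr-/- with 17 arrays (limma adjusted p = 0.957 in Pxr-/-), and 0.07 ± 0.11 and 0.10 ± 0.10 with 13. With 17 arrays, the 95% interval of the Pxr-/- difference was -0.13 to 0.21. This probe (chr4:66591199-66591258) is annotated to an Ensembl transcript, and the other 2 Tlr4 probes, which start at 66503724 and 66500344, to the RefSeq transcript. It lies farther from them than the RefSeq gene is long (66827551 to 66846581 in GRCm38), so it may not read the same transcript. The other 2 gave -0.23 and -0.18 in Pxr-/- (limma adjusted p = 0.659 and 0.809) and 0.05 and -0.02 in WT with 17 arrays. With 13 arrays they gave -0.24 and -0.13 in Pxr-/- and 0.01 and -0.09 in WT. Il11, a stromal cytokine, lay between 6.03 and 6.53 on all arrays (chr7:4724847-4724906). Its PCN differences were 0.02 ± 0.11 in WT and -0.13 ± 0.10 in Pxr-/- (limma adjusted p = 0.848), with an interval of -0.34 to 0.09 in Pxr-/-. With 13 arrays they were 0.03 ± 0.13 and -0.06 ± 0.12.

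Ptgs2 was the only member that was lower on all Pxr-/- PCN arrays than on all Pxr-/- CONT arrays. Its probe (chr1:151954744-151954803) gave 7.99, 7.54, 7.38, 7.70 and 8.36 in Pxr-/- CONT and 6.75, 7.36, 7.12 and 6.88 in Pxr-/- PCN. It gave 7.08, 6.73, 8.06 and 7.04 in WT CONT and 7.18, 7.60, 7.92 and 7.32 in WT PCN. The gap in Pxr-/- was narrow, between 7.36 and 7.38, and 1.42% of all probes were lower in this way (3.27% with 13 arrays). The Pxr-/- difference was -0.76 ± 0.26 (limma adjusted p = 0.544) and -0.99 ± 0.29 with 13 arrays (adjusted p = 0.495). It was -0.30 in 1 wash bath and -1.15 in the other with 17 arrays. The WT difference was 0.31 ± 0.28 and 0.17 ± 0.33. Smooth muscle markers were lower in the same comparison, with 0 of 8 genes higher under PCN in Pxr-/- and a median difference of -0.42. Their mean signal was 13.87 to 14.45 in Pxr-/- CONT and 13.51 to 14.05 in Pxr-/- PCN, and the part of this in the Ptgs2 result was not tested.

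**Figure D2:**
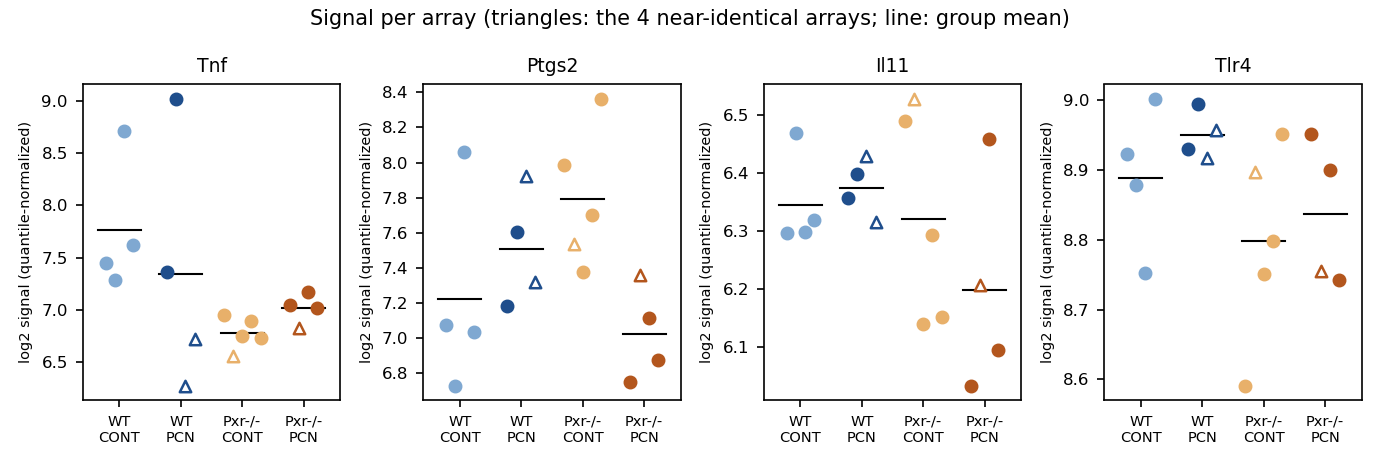
Log2 signal (quantile-normalized, vertical axis) of Tnf, Ptgs2, Il11 and Tlr4 on each array by group (horizontal axis), with the group mean as a line and the 4 near-identical arrays as open triangles. All Pxr-/- CONT arrays lie below all WT CONT arrays for Tnf, all Pxr-/- PCN arrays lie below all Pxr-/- CONT arrays for Ptgs2, and Il11 and Tlr4 span less than 1 log2 unit.

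Without PCN, 8 of the 9 members were lower in Pxr-/- CONT than in WT CONT, and limma called 0 (2 had an unadjusted p under 0.05, as did 12.7% of all probes). Tnf was lower on all Pxr-/- CONT arrays than on all WT CONT arrays, as were 3.01% of all probes (3.72% with 13 arrays). Its difference was -1.01 ± 0.42 (limma adjusted p = 0.353) and -0.93 ± 0.36 with 13 arrays (adjusted p = 0.422). It was -0.55 and -1.41 within the wash baths with 17 arrays. WT CONT 4, which raised the WT mean most, was the array with the strongest pancreas signal, and the part of this was not tested. A second Tnf probe gave -0.51. Ptgs2 alone was higher in Pxr-/- CONT, by 0.56 ± 0.26 (adjusted p = 0.392). Ltb4r1 differed by -0.25 ± 0.20 (adjusted p = 0.616) and Il1b by -0.21 ± 0.30 (adjusted p = 0.787). For Il33, the sign differed between the wash baths, at 0.17 and -0.71.

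The PCN difference in Pxr-/- minus that in WT shares the WT arrays that served to choose the members, and its values are a description. With 17 arrays it was -0.25 for Il1b, 0.30 for Il33, 0.01 for Il6, 0.13 for Osm and -0.03 for Ltb4r1. With 13 arrays all of these were negative, at -0.90, -0.32, -0.69, -0.39 and -0.49. The 95% interval with 13 arrays was -1.37 to -0.42 for Il1b, -0.83 to -0.16 for Ltb4r1 and -1.10 to 0.46 for Il33. Ptgs2 had the value of largest size with both sets, -1.07 (95% interval -1.87 to -0.26) and -1.16 (-2.13 to -0.19). No member was called, and a difference that was called in 1 genotype with 13 arrays is thus not shown to differ between the genotypes.

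**Figure D3:**
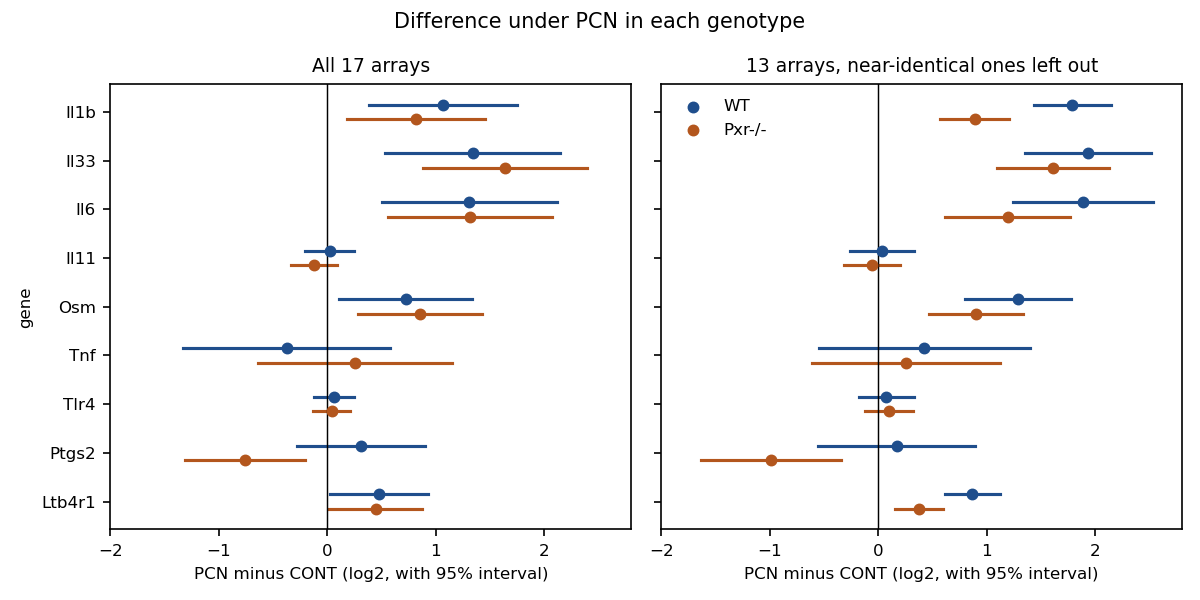
PCN minus corn oil difference in log2 signal for the 9 measured members in WT and in Pxr-/-, with 17 arrays and with the 13 arrays left without the near-identical ones, with 95% intervals from limma. Il33 has differences of 1.34 and 1.63 with 17 arrays, and Tnf in WT changes sign between the sets of arrays.

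Genes that act with the members were listed by pathway, and 92 of 102 listed symbols could be tested. These lists and the cell type lists below were chosen with earlier results of these arrays known, so their counts and medians are a description. Limma called 0 of the 92 in WT and 1 in Pxr-/- mice under PCN with 17 arrays, and 1 and 2 with 13. Over all probes, 0% and 0.00517% were called with 17 arrays, and 0.0491% and 0.0517% with 13. The called genes of the pathway lists were Selp and Cxcl5, both of the list of induced chemokines and adhesion molecules. Selp, which encodes the P-selectin that holds leukocytes on endothelium, was 6.18, 6.47, 6.68, 6.18 and 6.05 in Pxr-/- CONT and 7.50, 7.80, 7.79 and 7.76 in Pxr-/- PCN. It rose by 1.40 ± 0.19 (limma adjusted p = 0.0469) and by 1.42 ± 0.15 with 13 arrays (adjusted p = 0.0196). In WT it was 6.25, 6.32, 6.26 and 6.54 under corn oil and 7.66, 7.40, 6.69 and 7.75 under PCN, a difference of 1.03 ± 0.20 that was not called (adjusted p = 0.678). The 17-array call in Pxr-/- mice was lost when any array other than WT PCN 3, WT PCN 4 or Pxr-/- CONT 3 was left out, leaving 0 pathway genes called. Here WT PCN 3, though the lowest of its group, was above all WT CONT arrays.

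Cxcl5, a chemokine that attracts neutrophils, was 6.90, 7.44, 6.39 and 7.39 in WT CONT and 9.70, 10.20, 6.16 and 9.28 in WT PCN. It was 6.17, 6.33, 5.71, 6.06 and 6.21 in Pxr-/- CONT and 8.25, 9.28, 9.14 and 8.68 in Pxr-/- PCN. All PCN arrays but WT PCN 3 were above all CONT arrays. With 13 arrays it rose by 2.92 ± 0.31 in WT (limma adjusted p = 0.00664) and by 2.69 ± 0.27 in Pxr-/- (adjusted p = 0.0196). With 17 arrays the differences of 1.82 ± 0.64 and 2.75 ± 0.60 were not called (adjusted p = 0.956 and 0.253). With WT PCN 2 also left out, 0 pathway genes were called in WT. With Pxr-/- CONT 4, Pxr-/- CONT 5 or Pxr-/- PCN 3 left out, 0 were called in Pxr-/-, and with WT CONT 3, Pxr-/- CONT 1 or Pxr-/- PCN 1 left out, 1. Ccl2, a monocyte attractant, differed by 2.08 in WT and 1.92 in Pxr-/- with 13 arrays (adjusted p = 0.0698 and 0.0622) and by 1.38 and 1.93 with 17, and was not called.

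In the list of chemokines and adhesion molecules, 11 of the 12 tested genes were higher under PCN in each genotype with 17 arrays, with a median difference of 0.55 in WT and 0.69 in Pxr-/- (1.05 and 0.78 with 13). Over all tested probes the median was -0.00013 in WT and 0.0062 in Pxr-/- with 17 arrays. As the lists were chosen with earlier results known, these values are not independent evidence. Sele, Csf3 and Csf2 did not pass the filter, being well above background on 0, 2 and 0 of the 17 arrays. The median over the other lists was smaller. With 17 arrays it was 0.15 in WT and 0.00 in Pxr-/- for 11 partners of the IL-1 family, 0.14 and 0.18 for 11 partners of gp130 cytokines, and 0.01 and 0.18 for 20 genes of TNF and TLR4 signalling. For 19 genes of prostaglandins and leukotrienes it was 0.05 and -0.00, and for 19 other cytokines -0.00 and 0.05. None of the genes of these 5 lists was called with 17 or with 13 arrays.

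The 2 genes with the largest WT difference with 13 arrays in each of these lists are given by value, and none passed the test. Il1r2, the decoy receptor for interleukin 1, differed by 1.17 in WT and 0.90 in Pxr-/- with 13 arrays (limma adjusted p = 0.0574 and 0.135), and by 0.68 and 0.84 with 17. Osmr, the receptor of oncostatin M, differed by 0.92 and 0.95 with 13 arrays (adjusted p = 0.0862 and 0.0514) and by 0.64 and 0.95 with 17. Socs3, the feedback inhibitor of gp130 signalling, differed by 0.69 and 1.19 with 13 arrays (adjusted p = 1 and 0.327) and by 0.37 and 1.27 with 17. Il1rap, the chain shared by receptors of the IL-1 family, differed by 0.49 and 0.32 with 13 arrays and by 0.22 and 0.29 with 17. Tnfaip6, a TNF-induced hyaluronan-binding protein, differed by 1.15 and 0.80 with 13 arrays (adjusted p = 0.0862 and 0.28) and by 0.72 and 0.70 with 17. Ltb, lymphotoxin beta, differed by -0.61 and 0.26 with 13 arrays and by -0.56 and 0.42 with 17. In WT, Alox5ap, needed for leukotriene synthesis, differed by 0.81 with 13 arrays and 0.44 with 17, Ptgis, the prostacyclin synthase, by 0.59 and 0.10, Il4 by 0.52 and 0.22, and Tnfsf10 by -0.56 and -0.10. In Pxr-/- the same genes differed by 0.20, 0.06, 0.16 and -0.02 with 13 arrays.

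Some neutrophil markers were higher on the arrays on which the members were higher. With 17 arrays, 6 of the 9 tested markers were higher under PCN in WT and 7 of 9 in Pxr-/-, with 0 called, and with 13 arrays 6 of 9 in each genotype, with 1 called in WT and 2 in Pxr-/-. The mean log2 signal over the 9 tested markers was 8.15 to 8.59 in WT CONT and 8.06 to 9.94 in WT PCN, with the lowest value in WT PCN 3. It was 7.75 to 8.07 in Pxr-/- CONT and 8.84 to 9.40 in Pxr-/- PCN, so that the Pxr-/- groups did not overlap. S100a8, a calprotectin subunit abundant in neutrophils, was 7.10, 7.75, 7.80 and 8.35 in WT CONT and 10.70, 12.32, 7.08 and 10.22 in WT PCN. In Pxr-/- it was 5.73, 7.08, 6.91, 6.94 and 6.19 under corn oil and 10.53, 10.15, 9.66 and 10.19 under PCN. With 13 arrays it rose by 3.76 ± 0.49 in WT (limma adjusted p = 0.0289) and by 3.72 ± 0.44 in Pxr-/- (adjusted p = 0.0243). Its partner S100a9 rose by 3.94 ± 0.49 in Pxr-/- (adjusted p = 0.0306) and differed by 3.71 ± 0.55 in WT (adjusted p = 0.0574).

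With 17 arrays neither was called in Pxr-/- (adjusted p = 0.206 for both) or in WT (0.956 for both). Cxcr2, the neutrophil chemokine receptor, was 5.23 to 5.68 in Pxr-/- CONT and 5.89 to 6.83 in Pxr-/- PCN. Not all markers of the list moved. Csf3r was 15.55 to 15.89 on all arrays, above the mean of colonocyte markers, which was 14.54 to 15.12. Whether a signal this high came from neutrophils was not tested, and Csf3r is part of the neutrophil mean. Ly6g was 9.12 to 11.72 in Pxr-/- CONT, against 11.94, 11.10 and 9.30 in Pxr-/- PCN 1, 2 and 4. Its signal was highest of all arrays in Pxr-/- PCN 3. In WT, Ly6g was 9.85 to 12.59 under corn oil and 9.62 to 12.72 under PCN. The mean of distal colon markers was 10.44 on Pxr-/- PCN 3, 10.31 on WT PCN 1 and 9.88 on WT CONT 3, the highest arrays for Ly6g. It was 7.70 on Pxr-/- CONT 4 and 6.35 on Pxr-/- PCN 4, the lowest arrays for Ly6g. The part of position along the colon in Ly6g, and through Ly6g in the neutrophil mean, was not tested. The mean of monocyte and macrophage markers overlapped between treatments, at 11.59 to 12.19 in WT CONT and 11.64 to 12.31 in WT PCN, and at 11.47 to 11.78 in Pxr-/- CONT and 11.67 to 11.92 in Pxr-/- PCN. The part of neutrophil markers in the differences of the members was not tested.

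**Figure D4:**
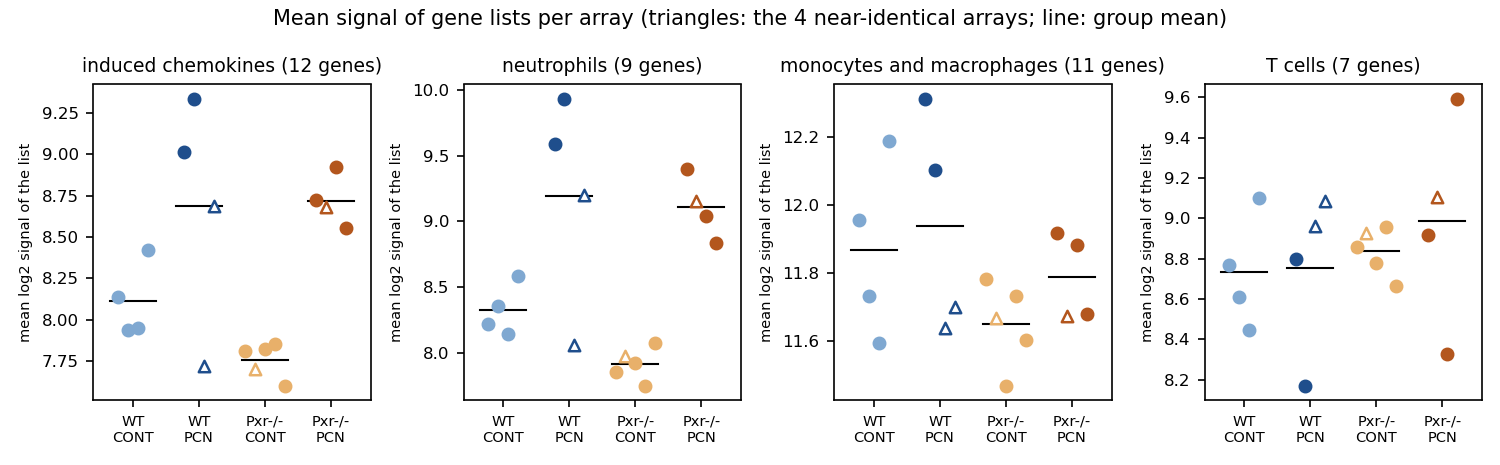
Mean log2 signal (vertical axis) of the tested genes of 4 lists on each array by group (horizontal axis), with the group mean as a line and the 4 near-identical arrays as open triangles. Chemokines and adhesion molecules span 7.60 to 7.85 in Pxr-/- CONT and 8.55 to 8.92 in Pxr-/- PCN, the mean of neutrophil markers separates the same groups, and macrophage and T cell markers overlap.

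Limma called no gene of the other cell type lists for PCN in either genotype with 17 or 13 arrays. With 17 arrays, the median PCN difference in WT and in Pxr-/- was 0.15 and 0.67 for mast cells, 0.32 and -0.18 for eosinophils, 0.01 and 0.20 for T cells, and -0.58 and 0.14 for B and plasma cells. It was 0.11 and 0.08 for fibroblasts, -0.11 and 0.05 for endothelial cells, 0.07 and -0.06 for colonocytes, 0.10 and -0.14 for goblet cells, and -0.36 and -0.37 for mesothelium. It was -1.30 and -0.73 for adipocytes, 0.16 and -0.06 for squamous epithelium, 0.05 and 0.12 for skeletal muscle, and -0.38 and 0.61 for genes of the distal colon. For monocytes and macrophages it was 0.11 and 0.26, and 0.45 and 0.28 with 13 arrays. Some WT medians changed sign with 13 arrays, among them T cells (-0.34), mesothelium (0.24) and distal colon (0.22).

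The genes whose pattern was most like that of the members were taken by Pearson correlation over 13 arrays, among 24987 genes. The correlation was with the mean of the standardized values of all 9 tested members, Tnf, Ptgs2, Il11 and Tlr4 included. They were Ninj1 (r = 0.97, and 0.83 over 17 arrays), Emilin2 (0.96 and 0.91), Hmox1 (0.95 and 0.94), S100a4 (0.95 and 0.92) and Fam20c (0.94 and 0.77). These values have no test, and the arrays share treatment groups. A high correlation did not always go with separate treatment groups. Ninj1 was 12.71 to 12.81 in WT CONT and 12.63 to 13.18 in WT PCN. In Pxr-/- it was 12.65 to 12.75 under corn oil and 12.69 to 12.88 under PCN. Fam20c also overlapped in both genotypes, whereas Emilin2 was 8.58 to 8.98 in Pxr-/- CONT and 9.32 to 10.01 in Pxr-/- PCN. Hmox1, heme oxygenase 1, was 9.64 to 10.20 in WT CONT, 9.67 to 11.42 in WT PCN, 9.39 to 9.67 in Pxr-/- CONT and 10.09 to 10.63 in Pxr-/- PCN. S100a4, a calcium-binding protein of motile cells, was 12.46 to 13.08, 12.43 to 14.26, 12.33 to 12.76 and 12.70 to 13.22 in the same order. For both genes, as for the 5 members, the lowest WT PCN signal was no higher than the highest WT CONT signal.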

How the data were processed

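Total RNA of 17 samples of mouse colon was labelled with Cy3 and hybridized to 1-colour Agilent arrays, read with Agilent Feature Extraction 10.10.1.1. The authors deposited the scanner output, with the median intensity of each spot not normalized between arrays, and a table of log2 values normalized and corrected for the wash bath by their own procedure. The article describes liver arrays of this design, and quantile normalization stands in for its CrossNorm. After removal of outlier spots, log2 signals were quantile-normalized between arrays, and 59305 spots were averaged to 56605 probes. Probes well above background on at least 4 arrays were tested (38703). Background medians lay at 20 to 28 units and no spot was saturated. Precision is limited by the number of arrays.

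Limma's linear model held the 4 groups plus wash bath as a covariate, over all tested probes (version 3.58.1 in R 4.3.3), with Benjamini-Hochberg adjustment. A call needed a fold above 1.5 with an FDR no higher than 0.05, and the fit was tested on simulated data. Members and gene lists were chosen with earlier results of these data known. Named genes were the members, called genes of the pathway lists, the 2 with the largest WT difference per list with 13 arrays, Nr1i2, and the 5 genes most alike; cell type markers were named after their values were seen, where they moved with a member. Il36a and Il36g stand on the array under their older symbols Il1f6 (well above background on at most 1 array, not tested) and Il1f9 (tested under that name). Il5, Il13, Il17a, Il17f and Il23a were well above background on at most 2 arrays. Replicates are separate samples per the labels, which do not name the animals, so p-values measure the spread between samples, which may be partly technical. Alternatives were other arrays, normalization, background, filter, covariates and blocks.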

Additional observations from a re-analysis of the deposited data

Results flagged for a closer look

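Il11 in WT CONT 3 had a log2 signal of 6.47, far from the 6.30 to 6.32 of the other WT CONT arrays relative to the range of the group. It was the only such array among 36 groups of values tested, where chance alone flags about 1 in 20.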

How the results depend on the processing

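Counts depended most on the near-identical arrays. Called members for PCN in WT (0 with 17 arrays) became 3 without the 4 arrays, 5 without WT PCN 3 and 4, and 0 to 2 when each array was left out in turn (2, Il33 and Il6, without WT PCN 3). For PCN in Pxr-/- (0) they became 2 without WT PCN 3 and 4, 1 with the 2 Pxr-/- groups alone, and 0 to 2 with each array left out (2 without WT PCN 3). Pathway genes called in WT (0) became 1, 5 and 0 to 4 in the same order of arrays. In Pxr-/- (1) they became 2, 5 and 0 to 5 (5 without WT PCN 3), 4 with the 2 groups alone, and 0 with the 75th percentile, normexp, no filter, or the slide as a block (fixed or random). For genotype in CONT, 2 pathway genes were called with array weights (0 otherwise). Replicate numbers did not pair the arrays, with correlations of deviations from -0.33 to 0.45, and with the replicate block 0 pathway genes were called for PCN in Pxr-/- while the other counts did not move. Alternatives of the fit with 13 arrays were added after seeing the data. Members called in WT (3) were then 1 to 4 with each array left out (4 without Pxr-/- PCN 4), 1 with the 75th percentile and 5 with normexp, and Il1b was among them each time. In Pxr-/- (0) they were 0 to 1 (Il33 without WT CONT 4) and 1 (Il33) without the bath term. Pathway genes called in WT (1) were 0 to 4, 2 with the 75th percentile, 4 with normexp and 5 without the bath term, and in Pxr-/- (2) they were 0 to 3. The sign turned for small differences of members. Il11 for genotype in CONT (-0.02) was -0.077 to 0.041 with each array left out, as 0.015 without WT CONT 3, 0.041 without Pxr-/- CONT 3, 0.017 without Pxr-/- CONT 5, and it was 0.0095 with the slide as a fixed block. Tlr4 for PCN in Pxr-/- (0.04) was -0.012 to 0.078 with each array left out, as -0.012 without Pxr-/- CONT 1, -0.0021 without Pxr-/- PCN 1, and it was -0.037 with the slide as a fixed block and -0.12 for the mean of its probes. The causes were not tested. With probes required above background on all 17 arrays, Il6 gave no value.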
